A study of Danio rerio with 57 samples.

Results

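The libraries described here come from zebrafish embryos that were exposed to 2.4 µM sorafenib, the higher concentration used, from 24 hpf (hours post fertilization) and sampled at 36 hpf, after 12 h, together with their solvent controls. They were chosen by the labels for substance, concentration, start of exposure and age, which gave 3 sorafenib libraries (T16, T18 and T20) and 3 DMSO libraries (T28, T29 and T30), 6 of 57 libraries in the series. All embryos were of the wild-type OBI/WIK strain and were kept at 26 °C, and each library holds RNA of a pool of 20 whole embryos. The exposure beginning at 24 hpf is called the late exposure scenario, and it also holds sorafenib at 1.3 µM and rotenone at 25 nM and 50 nM at the same age, and the same treatments at later ages. Stranded RNA-seq libraries were made from total RNA, and the reads counted on each gene were deposited. The comparison asks which transcripts differ after a short exposure to an angiogenesis inhibitor, at an age at which the trunk vessels are sprouting.

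Sorafenib is a kinase inhibitor used in cancer therapy that blocks the VEGF receptors, PDGF receptors, KIT and RAF kinases. VEGF ligands bind receptor tyrosine kinases on endothelial cells (Flt1, Kdr and Kdrl, Flt4), with neuropilins as co-receptors, and drive sprouting of new vessels from existing ones. In zebrafish, the intersegmental vessels sprout from the dorsal aorta, led by tip cells and shaped by Dll4 and Notch signalling. Rotenone, an inhibitor of mitochondrial complex I, is the other substance of the series.

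T16 stood apart from the other sorafenib libraries. Total counts were 32920663 in T16, 37686359 in T18 and 33382538 in T20, against 44607935, 37890609 and 45026934 in the DMSO libraries, and between 80.57% and 81.5% of the reads of each library were counted on a gene. T16 had counts on 24077 genes, where the other 5 had counts on 25025 to 25393. Over the 24246 genes tested, the median absolute log2 distance of T16 from the mean of T18 and T20 was 0.662, while T18 and T20 differed from each other by 0.144 and each DMSO library lay 0.105 to 0.119 from the mean of the other DMSO libraries. In T16, 2929 genes lay more than 1 log2 unit above the mean of T18 and T20 and 4854 more than 1 below it, 32.1% of the genes, against 3.36% to 3.62% for the DMSO libraries. The rotenone 50 nM library T37, at a distance of 0.482 from its group, was the other late library at 36 hpf that deviated.

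The deviation of T16 followed gene classes. The 81 cytosolic ribosomal protein genes took 17.2% of all counts in T16, 8.69% in T18 and 8.62% in T20, against 9.12%, 8.96% and 8.95% in the DMSO libraries, and 13.5% in T37. Of these genes, 79 were higher in T16 than in the mean of T18 and T20, with a median difference of 1.61 on the log2 scale. The median difference was also positive for lens crystallins (1.34), hormones (1.22), histones (1.16) and yolk and liver genes (0.82). It was negative for collagens (-0.69, with 52 of 57 genes lower in T16), VEGF receptors (-0.61, 8 of 8 lower) and the kinases known as sorafenib targets (-0.59, 16 of 18 lower). Of the endothelial genes, 39 were higher and 47 lower in T16, with a median difference of -0.06. Whether RNA quality, staging or handling of the pool had a part in this was not tested.

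**Figure D1:**
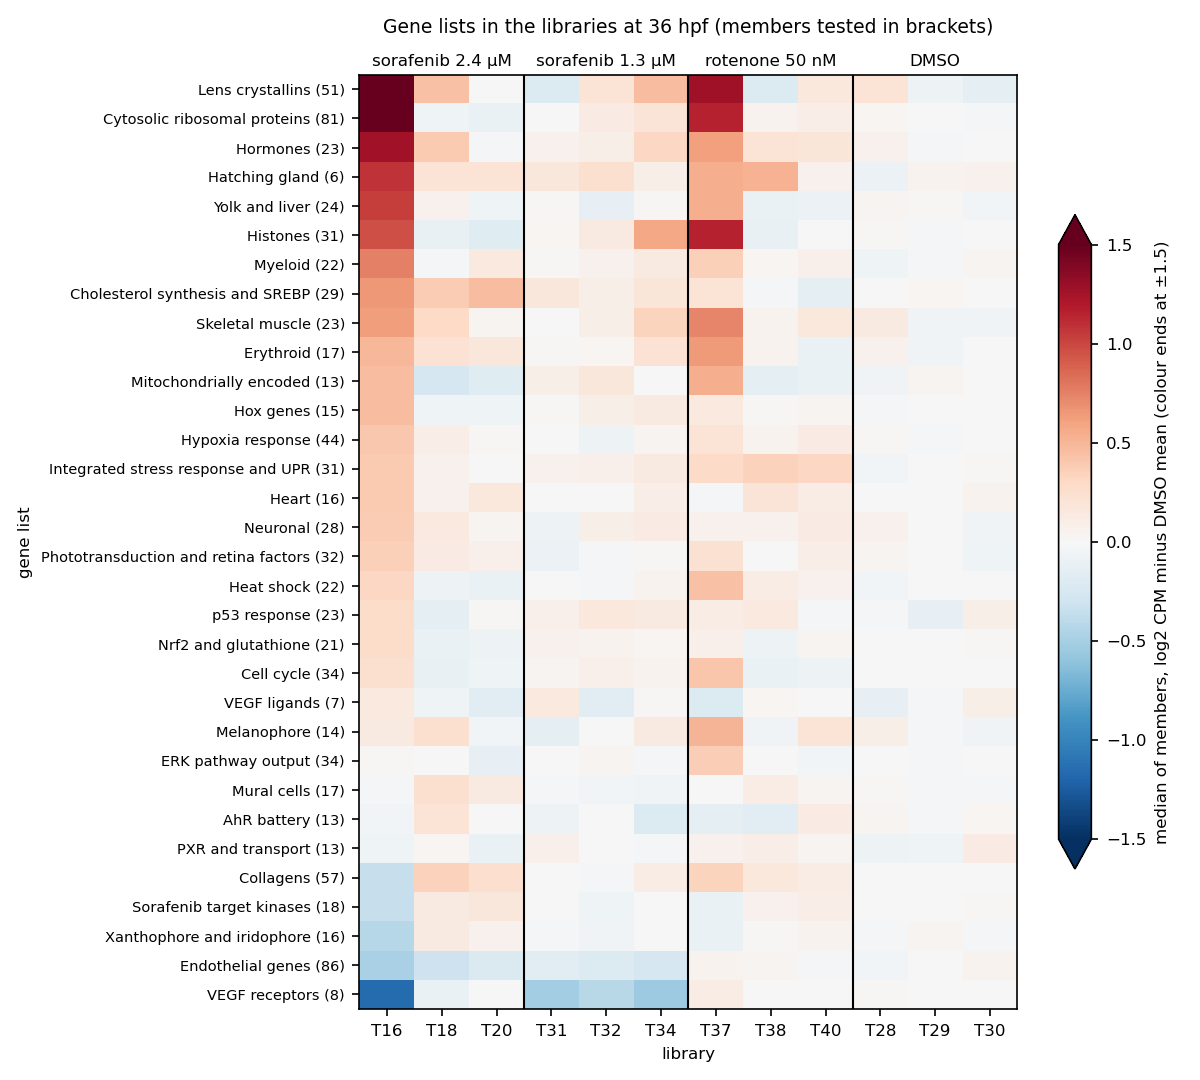
Each row is a gene list and each column a library at 36 hpf, and the colour is the median over the members of log2 CPM (read counts relative to the TMM-scaled size of the library) minus the mean of the DMSO libraries. T16 has medians of 1.54 for ribosomal proteins and 1.70 for lens crystallins, where T18 and T20 are between -0.10 and 0.44, while the endothelial genes are below 0 in all 3 libraries with 2.4 µM (-0.49, -0.31 and -0.22).

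Single genes showed the same spread. The cardiac peptide gene nppb and the globin gene hbae1.2 were among the genes farthest above the other libraries in T16, hbae1.2 with 301 CPM in T16 against 58.0 CPM in T18 and 51.2 CPM in T20. The ATP synthase subunit gene atp5md had 383 CPM in T16, 73.7 CPM in T18 and 74.2 CPM in T20. Among the genes farthest below them were DYNC1H1, the heavy chain of cytoplasmic dynein, with 4.94 CPM in T16, 91.2 CPM in T18 and 87.1 CPM in T20, and the laminin gene lama2, with 1.08 CPM in T16, 17.6 CPM in T18 and 16.4 CPM in T20. In the DMSO libraries DYNC1H1 was between 57.3 and 64.7 CPM and lama2 between 8.1 and 9.73 CPM, so T16 was far below the controls, and T18 and T20 above them. For this reason results of contrasts that hold T16 are given with T16 and without it.

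A gene counts as differentially expressed (DEG) where its p in edgeR's quasi-likelihood test, adjusted after Benjamini and Hochberg, is under 0.05, and log2 fold changes (log2FC) are sorafenib over DMSO. With T16 there were 540 DEGs, of which 411 were up-regulated (1.7% of the 24246 genes tested) and 129 down-regulated (0.532%). Without T16 there were 913 DEGs, 800 up-regulated (3.3% of 24232 genes) and 113 down-regulated (0.466%). The fits shared 237 DEGs, all in the same direction, 43.9% of those called with T16 and 26% of those called without it. The number of DEGs rested on single libraries of both groups: it was 2479 without T18 and 3016 without T20, and 257, 135 and 119 without T28, T29 and T30. It was 0 when the 6 libraries were fitted alone, where 4065 DEGs were called once T16 was left out. The p-values measure the spread between pools of embryos, which the main fit estimates over all 18 groups together. They therefore do not rest on the spread of these 6 pools alone, and T16 lies farther from its group than the DMSO libraries do from theirs.

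**Figure D2:**
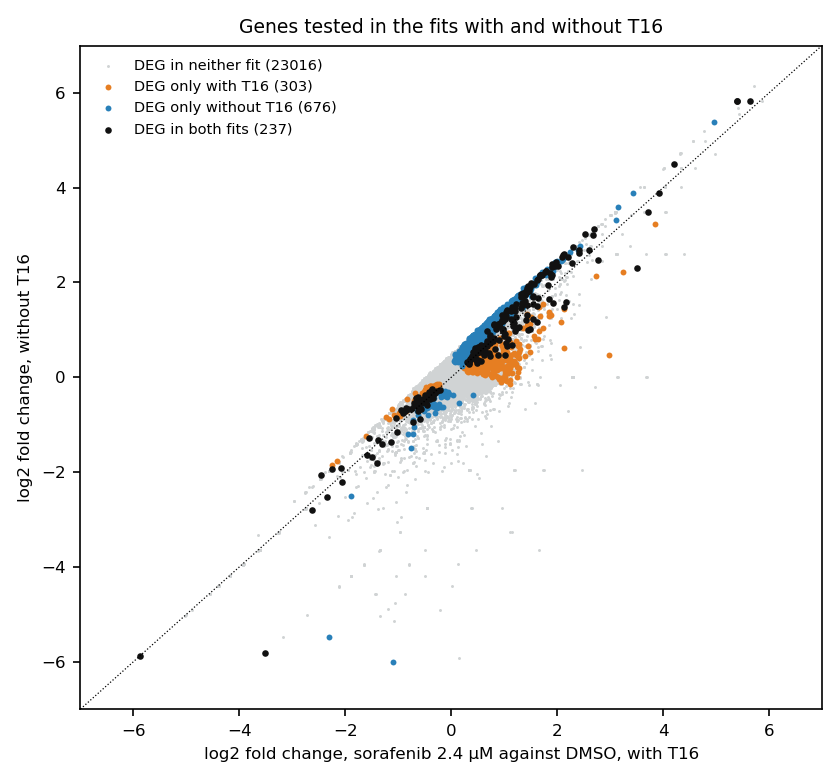
Every point is a gene tested in both fits, at its log2 fold change with T16 (horizontal) and without T16 (vertical), and the dotted line marks equal values. The 237 DEGs of both fits have the same sign in both, some of them at different values (nppb at 3.51 with T16 and 2.31 without it), while 303 genes were DEGs only with T16 and 676 only without it.

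How far T16 followed T18 and T20 varied between the sets of DEGs. For the 65 genes down-regulated in both fits, the median difference from the DMSO mean was -0.69 in T16, -0.58 in T18 and -0.59 in T20, and in all 65 the 3 sorafenib libraries were below all 3 DMSO libraries. Over all genes tested this was so for 1622 (6.69%), and all 3 sorafenib libraries were above all DMSO libraries for 1377 (5.68%). The 172 genes up-regulated in both fits had medians of 0.43, 1.22 and 1.15 in T16, T18 and T20, and for 121 of them all 3 libraries were above all DMSO libraries. The 628 genes up-regulated only without T16 had a median of 0.96 in T18 and 1.06 in T20 but -0.88 in T16, and 554 of them were below the DMSO mean in T16. The 239 genes up-regulated only with T16 had medians of 1.48 in T16, 0.39 in T18 and 0.22 in T20. The 48 genes down-regulated only without T16 had medians of 0.07 in T16, -0.59 in T18 and -0.52 in T20, and 27 of them were above the DMSO mean in T16. The 64 genes down-regulated only with T16 had medians of -0.70, -0.31 and -0.25 in T16, T18 and T20. These sets were chosen from the same values, so the medians only describe them.

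Transcripts of 3 VEGF receptors were lower with sorafenib. The receptor gene flt1, whose product binds VEGF-A and limits its signal, had 0.944, 1.81 and 1.17 CPM in the sorafenib libraries T16, T18 and T20, against 6.22, 5.32 and 5.53 CPM in the DMSO libraries T28, T29 and T30. FLT4, the receptor for Vegfc of venous and lymphatic endothelium, had 9.35, 13.8 and 13.9 CPM in sorafenib libraries, against 22.2, 22.2 and 21.4 CPM in DMSO libraries. The main VEGF-A receptor of zebrafish endothelium, kdrl, had 15.3, 25.2 and 21.8 CPM in sorafenib libraries, against 32.2, 30.9 and 34.6 CPM in DMSO libraries. In each of these genes every sorafenib library was below every DMSO library, and T16 was the lowest. The log2 fold change of flt1 was -2.08 ± 0.23 (SE; edgeR adjusted p = 3.94e-07) with T16 and -1.92 ± 0.25 (adjusted p = 1.86e-05) without it. For FLT4 it was -0.82 ± 0.11 with T16 and -0.66 ± 0.11 without it (edgeR adjusted p = 8.76e-06 and 0.000168), and for kdrl -0.64 ± 0.12 and -0.47 ± 0.12 (0.00245 and 0.017). In whole embryos, fewer endothelial cells and less RNA per endothelial cell cannot be told apart.

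The other 5 receptor genes were not called. The receptor gene kdr had 0.494 CPM in T16, 4.41 CPM in T18 and 5.07 CPM in T20, against 4.99, 5.45 and 5.33 CPM in DMSO libraries, so its log2 fold change of -0.61 with T16 became -0.15 without it (edgeR adjusted p = 0.298 and 0.83). The neuropilin gene nrp1b followed the same order, with 1.35 CPM in T16, 7.03 CPM in T18 and 7.68 CPM in T20, against 5.48 to 6.06 CPM in DMSO libraries. The median log2 fold change of the 8 receptors was -0.34 with T16 and -0.05 without it, where the median of all genes was 0.06 and 0.00. The calls were flt1, FLT4 and kdrl in both fits, and without T16 4 of the 8 receptors had a positive log2 fold change. Of the 7 VEGF ligand genes none was called with T16, while placental growth factor, PGF, with 0.629, 1.41 and 0.66 CPM in sorafenib libraries against 0.441, 0.54 and 0.612 CPM in DMSO libraries, was up-regulated without it (log2 fold change 0.97, edgeR adjusted p = 0.0343). Without T16 the other 6 ligand genes had negative log2 fold changes, none of which passed the test. The VEGFA genes lay between 10.9 and 16.0 CPM in the sorafenib libraries, against 11.5 to 14.3 CPM in the DMSO libraries, and their ranges overlap.

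Other endothelial genes were lower too. Of 86 genes listed for endothelium, FLT4 included, 23 were down-regulated and 0 up-regulated with T16 (median log2 fold change -0.35, with 71 members negative), and 29 were down-regulated and 2 up-regulated without it (median -0.30). Down-regulated genes made up 0.532% of all genes with T16 and 0.466% without it. In 33 of the 86 genes all 3 sorafenib libraries were below all 3 DMSO libraries, and in 1 all were above, where the shares over all genes were 6.69% and 5.68%. The count of down-regulated members was between 16 and 29 when any 1 of the 6 libraries was left out. It was 0 in the fit of the 6 libraries alone and 34 in that fit without T16. The medians stayed between -0.38 and -0.29 under these settings. The list was drawn up with earlier results of these libraries known, so its direction is not independent evidence.

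**Figure D3:**
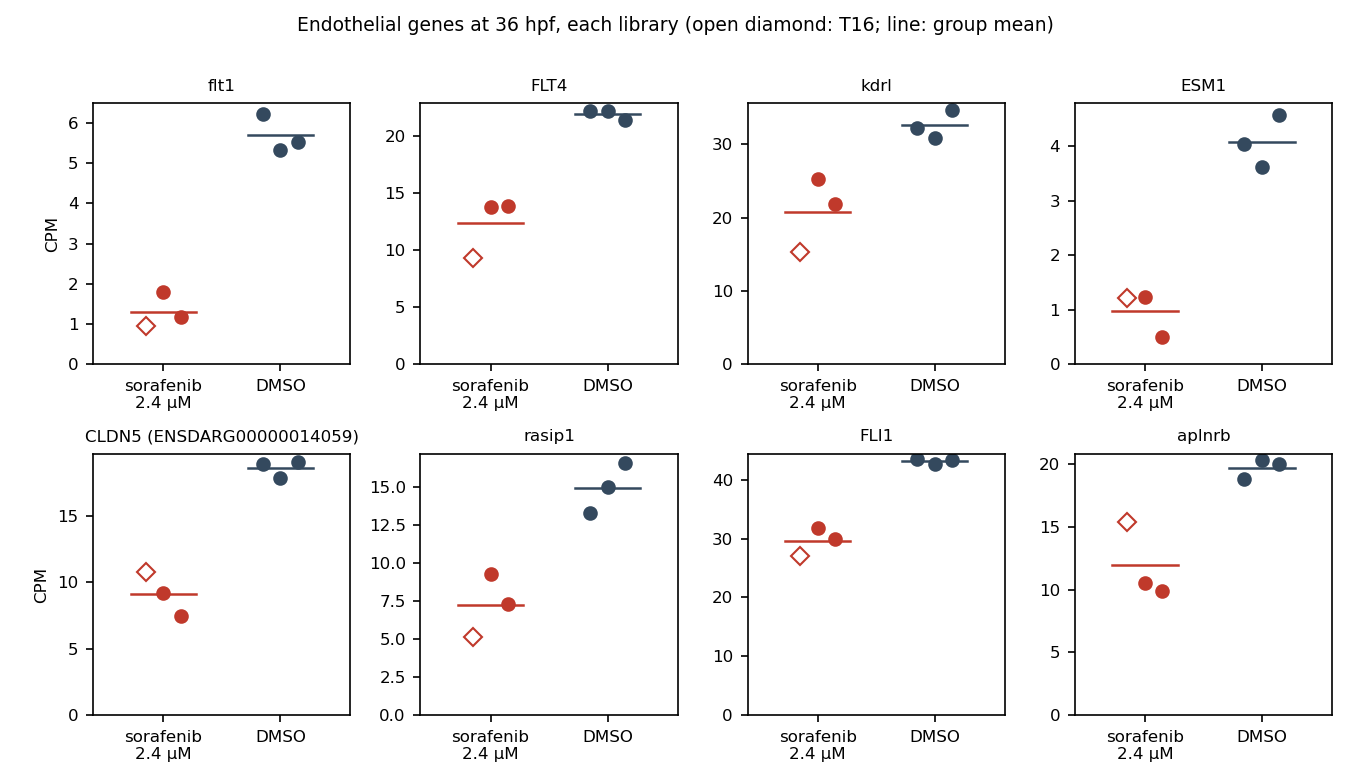
CPM of 8 endothelial genes in each library, sorafenib left and DMSO right, with lines at the group means and T16 as an open diamond. In every panel all 3 sorafenib libraries are below all 3 DMSO libraries, with flt1 at 0.944 to 1.81 CPM against 5.32 to 6.22 CPM.

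Among tip cell and arterial genes, 4 of 16 were down-regulated in each fit, and 2 were up-regulated without T16. ESM1, the secreted proteoglycan endocan that marks tip cells, had 1.21, 1.24 and 0.51 CPM in sorafenib libraries, against 4.04, 3.62 and 4.58 CPM in DMSO libraries. Its log2 fold change was -2.06 ± 0.30 with T16 and -2.20 ± 0.34 without it (edgeR adjusted p = 3.7e-05 and 0.000151), the lowest value among the members called in both fits. The Notch ligand gene dll4, which restrains sprouting, had 9.66, 10.7 and 8.13 CPM in sorafenib libraries, against 12.2, 12.2 and 13.9 CPM in DMSO libraries (log2 fold change -0.43 and -0.44). The apelin receptor gene aplnrb fell to 15.4, 10.5 and 9.9 CPM in sorafenib libraries, against 18.8, 20.3 and 20.0 CPM in DMSO libraries (-0.73 and -0.95). EFNB2 (ENSDARG00000020164), the arterial ephrin ligand, was called only with T16, and HEY2, a Notch target of arterial cells, only without it.

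NOTCH1 (ENSDARG00000052094) and the netrin receptor gene UNC5B were the 2 genes of the list that were up-regulated without T16. NOTCH1 (ENSDARG00000052094) had 16.6 CPM in T16, 129 CPM in T18 and 114 CPM in T20, against 73.6, 62.5 and 61.3 CPM in DMSO libraries. UNC5B had 7.19 CPM in T16, 18.7 CPM in T18 and 24.6 CPM in T20, against 9.82 to 10.1 CPM in DMSO libraries. In both, T16 was below all controls and the other sorafenib libraries above them, and neither gene was called with T16 (edgeR adjusted p = 0.53 for NOTCH1 and 0.112 for UNC5B).

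Of 20 genes of junctions and lumen formation, 5 were down-regulated in each fit. The tight junction gene CLDN5 (ENSDARG00000014059) had 10.8, 9.2 and 7.44 CPM in sorafenib libraries, against 18.9, 17.9 and 19.1 CPM in DMSO libraries, a log2 fold change of -1.03 ± 0.13 with T16 and -1.16 ± 0.14 without it (edgeR adjusted p = 3.27e-06 and 2.29e-06). The gene rasip1, needed for vessel lumens, had 5.12, 9.25 and 7.32 CPM in sorafenib libraries, against 13.3, 15.0 and 16.6 CPM in DMSO libraries (-1.04 and -0.85). The adhesion molecules pecam1 (-0.60 and -0.64) and ESAM (-0.85 and -0.65) fell as well. Vascular endothelial cadherin, cdh5, was below DMSO in all 3 libraries but missed the threshold (log2 fold change -0.57, edgeR adjusted p = 0.0558 with T16). The phosphatase gene ptprb was called only without T16 and thsd1 only with it.

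Of 15 endothelial transcription factors, 7 were down-regulated with T16 and 9 without it. FLI1, an ETS factor of the endothelial lineage, had 27.0, 31.8 and 29.9 CPM in sorafenib libraries, against 43.6, 42.8 and 43.4 CPM in DMSO libraries (log2 fold change -0.55 and -0.49, edgeR adjusted p = 8.76e-06 and 0.000168). The related genes ERG (-0.87 and -0.71) and fli1rs (-0.71 and -0.61), the 2 MEF2C genes (ENSDARG00000029764 and ENSDARG00000009418), SOX7 (-0.47 and -0.44) and the flow-responsive klf2b (-0.54 and -0.50) were down-regulated in both fits. The factors etsrp and klf2a were called only without T16. In the DMSO libraries klf2b had 27.9, 33.4 and 29.4 CPM at 36 hpf, and 21.0 and 24.1 CPM at 48 hpf. With sorafenib at 36 hpf klf2b had 19.7, 21.5 and 21.4 CPM. MEF2C (ENSDARG00000029764) and etsrp were also lower in DMSO libraries at 48 hpf than at 36 hpf. FLI1, with 53.1 and 55.2 CPM in DMSO libraries at 48 hpf, SOX7 and klf2a were higher. Whether age had a part in the falls of endothelial genes at 36 hpf was not tested. Of the Tie receptors and ligands, TIE1 fell (-0.54 and -0.46), and the Tie2 gene tek, at -0.38 and -0.41, was not called (edgeR adjusted p = 0.182 with T16).

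Of 11 venous and lymphatic genes, 1 was down-regulated with T16, FLT4, and 2 without it, FLT4 and GPR182. The venous factor NR2F2 had log2 fold changes of 0.00 and -0.05, the lymphatic factor PROX1 0.13 and 0.32 and the sinusoidal receptor gene stab2 -0.17 and 0.03, none of which passed the test. Whether venous and arterial members differ was not tested. Of 19 further endothelial genes 5 were down-regulated with T16 and 8 without it, among them yrk, CRIP2 (ENSDARG00000070670), exoc3l2a, myct1b and the water channel AQP1 (ENSDARG00000023713) in both fits. Outside the list, the fits shared falls of the endothelial repressor gene BCL6B, with 4.27, 6.06 and 3.99 CPM in sorafenib libraries against 13.5, 12.6 and 11.6 CPM in DMSO libraries (log2 fold change -1.39 and -1.32), of TM4SF18 (-1.56 and -1.28) and of the connexin gene gja4 (-2.62 and -2.81, at under 0.6 CPM in all 6 libraries).

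Calls in other lists are read against the 1.7% of all genes that were up-regulated with T16 and the 3.3% without it, and the 0.532% and 0.466% that were down-regulated. Of 17 genes of mural cells, which cover vessels, 2 were up-regulated with T16 (TAGLN, ENSDARG00000045408, and acta2) and 3 without it (ABCC9, CSPG4 and MYH11, ENSDARG00000009782), so no mural gene was called in both fits. Of 34 genes downstream of ERK, 1 was down-regulated in each fit, etv5b with T16 and DUSP5 without it. None of 18 kinases known as sorafenib targets was called with T16, and KIT and csf1ra were up-regulated without it (log2 fold change 1.33 and 1.01). KIT had 1.62 CPM in T16, 7.14 CPM in T18 and 7.83 CPM in T20, against 2.9 to 3.05 CPM in DMSO libraries. Globins and other erythroid genes summed to 9218 CPM in T16, 3354 CPM in T18 and 3220 CPM in T20, against 3122, 2760 and 2714 CPM in DMSO libraries. Heart genes summed to 1737, 1052 and 1099 CPM in sorafenib libraries, against 1102, 1126 and 1120 CPM in DMSO libraries. The endothelial list summed to 2795, 3351 and 3358 CPM in sorafenib libraries, against 3488, 3531 and 3536 CPM in DMSO libraries.

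Of 17 erythroid genes 2 were up-regulated with T16, hbae1.3 and hbae3, and 1 without it, SPTB. Among markers of other cell types, cyba of 22 myeloid genes, sncb of 28 neuronal genes and crygm2d21 of 51 lens crystallin genes were up-regulated with T16 only, and GAD1 and SLC17A6 of the neuronal genes and apobb.2 of 24 yolk and liver genes without it only. No member was called in either fit among genes of the cell cycle, Hox genes, histones, mitochondrially encoded genes, hatching gland genes and genes of PXR and transport. The part of these cell types in the endothelial result was not tested.

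The same endothelial genes are set beside the other groups of the late exposure scenario in the plot of log2 fold changes by comparison. Comparisons at 36 hpf share the DMSO libraries, and those values are given side by side only. With 1.3 µM sorafenib at 36 hpf, 3 genes were up-regulated (0.0124%) and 8 down-regulated (0.033%), and the 8 include 5 endothelial genes: CLDN5 (ENSDARG00000014059), rasip1, FLI1, ESM1 and FLT4. The receptor gene flt1 was the sixth, with 1.40, 2.44 and 1.38 CPM at 1.3 µM and a log2 fold change of -1.70. With 2.4 µM at 48 hpf, 48 genes were up-regulated (0.198%) and 50 down-regulated (0.206%), of which 18 were endothelial genes, FLT4 included, and flt1 and kdrl were called beside them. With rotenone at 50 nM at 36 hpf, 73 genes were up-regulated (0.301%) and 23 down-regulated (0.0949%), and 0 of 86 endothelial genes were called. This 0 is near the share over all genes. The rotenone 50 nM group holds the deviating library T37. Endothelial counts for 1.3 µM at 36 hpf, 2.4 µM at 48 hpf and rotenone at 50 nM were taken only in the fit with T16. With rotenone at 25 nM at 36 hpf, 21 genes were up-regulated and 0 down-regulated (0.0866% called). At 48 hpf there were 2 DMSO libraries. Single libraries moved these counts as well, although T16 belongs to none of the groups compared and is only part of the same fit. Without T16 there were 5 up-regulated and 12 down-regulated genes at 1.3 µM, and 78 and 70 with 2.4 µM at 48 hpf. With rotenone there were then 414 and 103 at 50 nM, and 280 and 3 at 25 nM. Without T29 the total was 4 at 1.3 µM, and with rotenone at 50 nM it was 28 without T28, 10 without T29 and 13 without T30. With the DMSO library T51 added back, 72 genes were up-regulated and 452 down-regulated with 2.4 µM at 48 hpf.

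**Figure D4:**
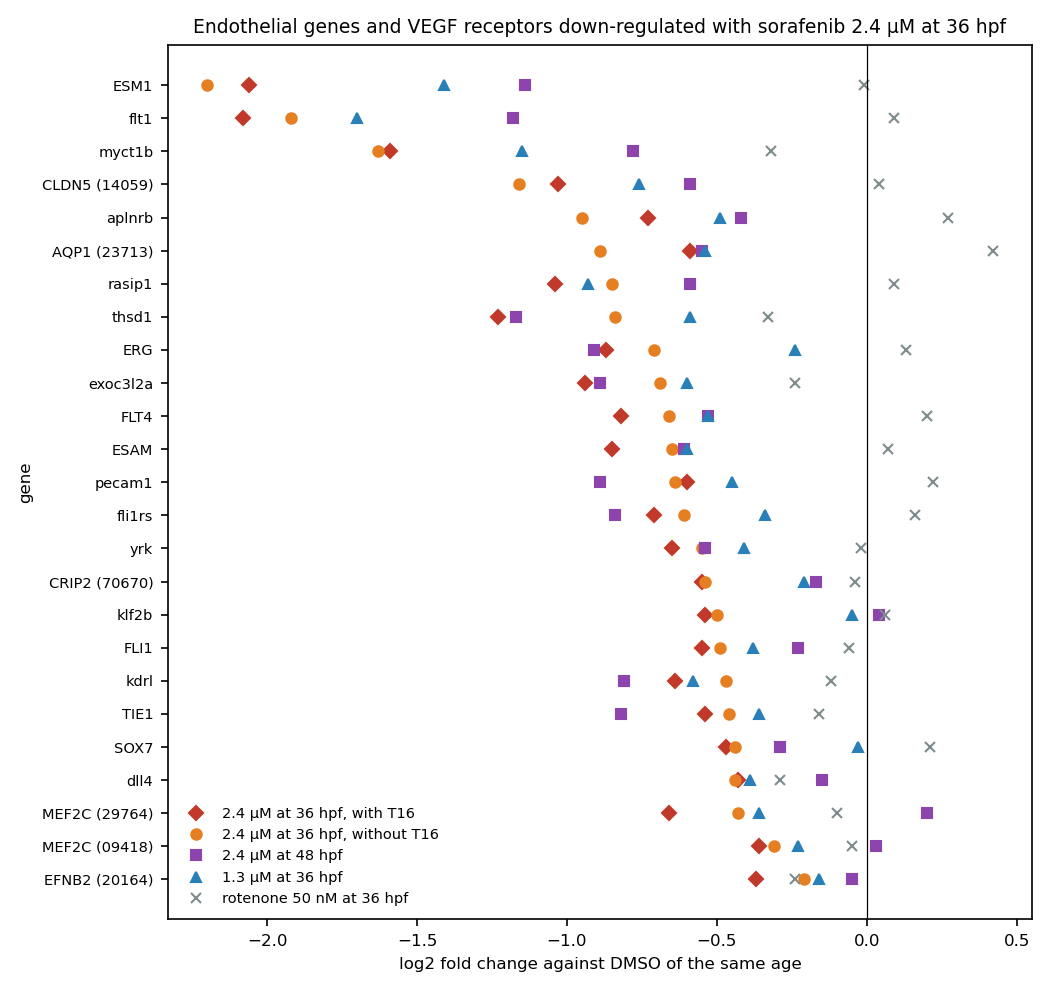
Log2 fold changes against DMSO of the same age for the endothelial genes and VEGF receptors that were down-regulated with 2.4 µM sorafenib at 36 hpf, in 4 comparisons and for 2.4 µM at 36 hpf also without T16. Genes were chosen for the values with T16. The values for ESM1 are -2.06 with T16, -2.20 without it, -1.41 at 1.3 µM, -1.14 at 48 hpf and -0.01 with rotenone.

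Several genes of cholesterol synthesis were higher with sorafenib. SREBP factors raise transcription of this pathway when sterols are low, and insig1, a feedback inhibitor of SREBP, is itself a target. In the sorafenib libraries insig1 had 60.8, 40.2 and 41.8 CPM, against 20.6, 18.1 and 20.5 CPM in DMSO libraries, with all sorafenib libraries above all controls. Its log2 fold change was 1.27 ± 0.18 with T16 and 1.06 ± 0.18 without it (edgeR adjusted p = 1.82e-05 and 0.000369). LSS, which makes lanosterol, had 7.14, 4.06 and 5.34 CPM in sorafenib libraries, against 1.83, 2.59 and 1.72 CPM in DMSO libraries (log2 fold change 1.42 with T16, edgeR adjusted p = 0.0124, and called without it at adjusted p = 0.0423). In both genes the groups at 36 hpf did not overlap. In the DMSO libraries at 48 hpf insig1 had 33.9 and 39.8 CPM, and LSS had 2.11 and 2.16 CPM. Whether age had a part in the rise of insig1 at 36 hpf was not tested.

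Of the 29 genes on the cholesterol list 7 were up-regulated with T16 (background 1.7%; insig1, LSS, CYP51A1, MVD, NSDHL and TM7SF2 among them) and 4 without it (background 3.3%; insig1, LSS and SREBF1 among them). The median log2 fold change was 0.51 and 0.46, and in 15 genes all sorafenib libraries were above all DMSO libraries, as in 5.68% of all genes. SREBF1 itself had 2.11 CPM in T16, 14.8 CPM in T18 and 17.7 CPM in T20, against 6.4 to 7.61 CPM in DMSO libraries. The count of calls was 2 without T28, without T29 or without T30, and 11 without T18. With the same concentration at 48 hpf 15 genes were up-regulated (median 0.95), with 1.3 µM at 36 hpf none (median 0.19) and with rotenone at 50 nM none (median 0.07).

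**Figure D5:**
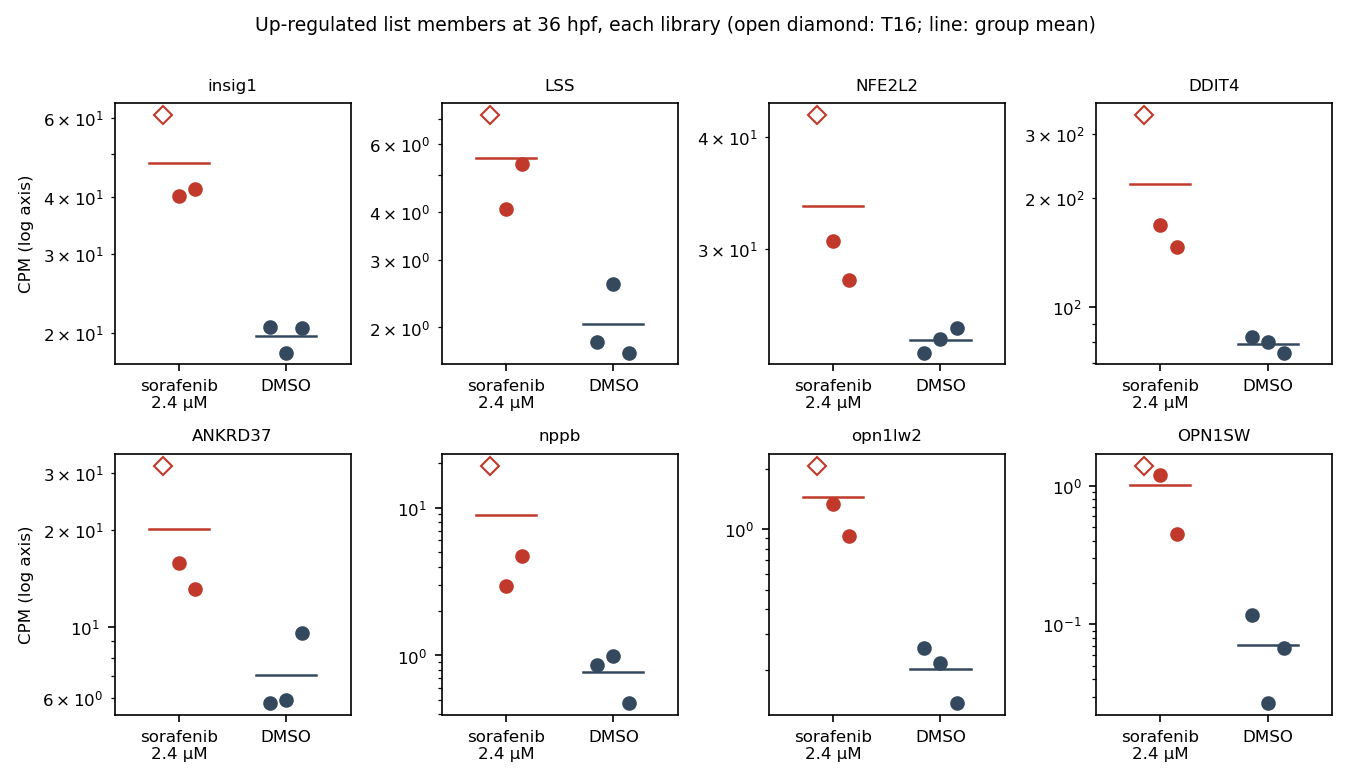
CPM on a log axis of 8 genes up-regulated in both fits, sorafenib left and DMSO right, with lines at the group means and T16 as an open diamond. All 3 sorafenib libraries are above all 3 DMSO libraries in each panel, and in DDIT4, ANKRD37 and nppb T16 is well above T18 and T20.

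The stress-responsive genes DDIT4 and ANKRD37 and the cardiac gene nppb rose, with a wide spread between pools. DDIT4, an inhibitor of mTORC1 that is induced by hypoxia and other stress, had 338 CPM in T16, 169 CPM in T18 and 147 CPM in T20, against 82.6, 80.4 and 75.0 CPM in DMSO libraries. Its log2 fold change was 1.45 ± 0.21 with T16 and 0.99 ± 0.18 without it (edgeR adjusted p = 2.37e-05 and 0.000891). ANKRD37, a target of hypoxia-inducible factor, had 31.6, 15.8 and 13.1 CPM in sorafenib libraries, against 5.78, 5.91 and 9.55 CPM in DMSO libraries (1.49 and 1.02). These were the 2 hypoxia genes called in both fits. Both were also higher in the DMSO libraries at 48 hpf than in those at 36 hpf, DDIT4 with 239 and 229 CPM and ANKRD37 with 60.7 and 55.8 CPM. Whether age had a part in their rise at 36 hpf was not tested. Of 44 members, 3 were up-regulated with T16 (EGLN3 being the third) and 3 without it (PDK1 being the third), where 1.7% and 3.3% of all genes were up-regulated, with medians of 0.15 and 0.03. With rotenone at 50 nM 3 hypoxia genes were up-regulated (0.301% of all genes). None of 31 genes of the integrated stress response and unfolded protein response was called in either fit (median 0.15 and 0.03), where 4 were up-regulated with rotenone at 50 nM.

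The natriuretic peptide gene nppb, a marker of cardiac load, had 19.2 CPM in T16, 2.95 CPM in T18 and 4.74 CPM in T20, against 0.858, 0.999 and 0.476 CPM in DMSO libraries. All sorafenib libraries were above the controls, and the log2 fold change was 3.51 ± 0.59 with T16 and 2.31 ± 0.54 without it (edgeR adjusted p = 0.000337 and 0.00845). In the DMSO libraries at 48 hpf nppb had 1.84 and 1.53 CPM. The related nppa, with 45.2, 11.0 and 13.4 CPM in sorafenib libraries against 6.33, 4.99 and 4.94 CPM in DMSO libraries, passed the test with T16 (2.08, edgeR adjusted p = 0.00334) and not without it (1.17, adjusted p = 0.0824). Of 16 heart genes no other was called with T16, and without it gata4 joined nppb.

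Opsins and a few other listed genes were also called in both fits. The cone opsin genes opn1lw2, with 2.07, 1.33 and 0.93 CPM in sorafenib libraries against 0.255, 0.216 and 0.136 CPM in DMSO libraries, and OPN1SW, with 1.39, 1.19 and 0.45 CPM in sorafenib libraries against 0.116, 0.027 and 0.068 CPM in DMSO libraries, were up-regulated from very low levels. In the DMSO libraries at 48 hpf opn1lw2 had 1.08 and 1.3 CPM, and OPN1SW had 0 CPM in both. NFE2L2, the factor of the antioxidant response, had 42.3, 30.6 and 27.7 CPM in sorafenib libraries, against 23.0, 23.8 and 24.5 CPM in DMSO libraries (log2 fold change 0.49 and 0.30), while its target gstp1 was called only with T16. In the DMSO libraries at 48 hpf NFE2L2 had 43.6 and 42.3 CPM. The p53 target plk2b fell to 13.4, 10.4 and 10.3 CPM in sorafenib libraries, against 16.8, 14.0 and 15.5 CPM in DMSO libraries. The collagen genes col6a1 (0.52 and 0.62) and col19a1 (ENSDARG00000076163, 0.84 with T16) were up-regulated in both fits. With DMSO col6a1 had 64.8, 58 and 57.4 CPM at 36 hpf, and 147 CPM in both libraries at 48 hpf. For col19a1 (ENSDARG00000076163) these values were 1.62, 2.24 and 1.61 CPM at 36 hpf, and 5.03 and 5.22 CPM at 48 hpf. The part of age in these rises was not tested. Collagens as a list had 2 calls with T16 and 10 without it, all up-regulated, where 1.7% and 3.3% of all genes were, and T16 was below the other sorafenib libraries in 52 of 57.

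Apart from the lists, the genes with the largest rises called in both fits and above DMSO in all 3 libraries were mostly of low level. They include KREMEN1, a receptor for the Wnt inhibitor Dickkopf, with 1.08, 2.62 and 4.02 CPM in sorafenib libraries against 0.371, 0.702 and 0.635 CPM in DMSO libraries (log2 fold change 2.21 and 2.54). HSPA12A, an atypical member of the Hsp70 family, had 1.03, 2.81 and 3.93 CPM in sorafenib libraries, against 0.65, 0.567 and 0.748 CPM in DMSO libraries (2.01 and 2.35). The diacylglycerol kinase gene DGKG, the metalloproteinase genes MMP24 and LMLN, the dystrobrevin gene dtnbb, the protocadherin gene pcdh2ab1, ABHD8 (ENSDARG00000103518), the sodium channel subunit gene SCN2B, the ceramidase gene ACER3 and the synaptic gene RIMS4 stayed under 3 CPM in all 6 libraries. In most of these genes T16 was the lowest of the sorafenib libraries. At 48 hpf the DMSO libraries had 1.79 and 0.936 CPM of KREMEN1, 1.11 and 1.05 CPM of HSPA12A and 1.48 and 1.36 CPM of SCN2B. For LMLN they had 0.87 and 0.454 CPM, which overlaps with 0.302 to 0.726 CPM in DMSO libraries at 36 hpf. The part of age in these rises was not tested. For eef1a2, an elongation factor gene of muscle and neurons, 2, 10 and 1 reads were counted in T16, T18 and T20 and 0 in each DMSO library, so no fold change is given. Other large falls outside the endothelial list were those of F2RL2 (ENSDARG00000090524), a protease-activated receptor gene (-2.26 and -1.94), and the muscle genes KBTBD13 (-1.40 and -1.80) and APOBEC2 (ENSDARG00000113992, -1.49 and -1.69). They also include ghrhrb and THEMIS, which were under 1 CPM in all 6 libraries. TMEM244 was also called, with 1, 0 and 0 reads in the sorafenib libraries and 3, 9 and 7 reads in the DMSO libraries.

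Genes called in only 1 fit showed how T16 acts on the calls. With T16 only, EPB41 was up-regulated, with 144 CPM in T16, 49.8 CPM in T18 and 42.7 CPM in T20, against 34.5, 32.0 and 32.0 CPM in DMSO libraries (log2 fold change 1.26, and 0.49 without T16). The Notch target her2 (186, 58.9 and 51.2 CPM in sorafenib libraries, against 42.9, 41.2 and 39.0 CPM in DMSO libraries), the survival gene mcl1b and the troponin gene tnni1c had the same order of libraries. In these genes T18 and T20 were above the controls by less. Down-regulated only with T16 were notchl, ADCY2 (ENSDARG00000014588) and the mesoderm factor tbx6, in which T16 was the lowest library. Without T16 only, PKD2, the polycystin cation channel gene, was up-regulated, with 9.01 CPM in T18 and 11.2 CPM in T20 but 1.8 CPM in T16, against 3.6, 4.21 and 3.38 CPM in DMSO libraries (1.44, and 1.00 with T16). SRGAP1, crb2a, zc3h6 and ITSN2 (ENSDARG00000000161) had T16 below and T18 and T20 above all controls. Down-regulated only without T16 were MYCT1, HEY2, AVPR1A (ENSDARG00000045788), the hepcidin regulator gene HJV and FITM2, and in each of them T16 was the highest of the sorafenib libraries. HEY2 had 12.0 CPM in T16, 7.74 CPM in T18 and 7.68 CPM in T20, against 11.2, 11.0 and 12.0 CPM in DMSO libraries.

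The calls among ribosomal protein genes came with T16. With it, RPL35 and rplp2 of 81 genes were up-regulated, where 1.7% of all genes were, and the list's median log2 fold change was 0.67. Without it 0 of 81 genes were called, where 3.3% of all genes were up-regulated, and the median was -0.08. RPL35 had 3680 CPM in T16, 963 CPM in T18 and 909 CPM in T20, against 983, 928 and 941 CPM in DMSO libraries. Of 23 skeletal muscle genes, TNNT3 (ENSDARG00000030270 and ENSDARG00000068457), myhz1.1, pvalb1 and pvalb2 were up-regulated with T16 and not without it, and RYR1 (ENSDARG00000023797) without T16 only. These calls are read against the same 1.7% and 3.3% of all genes.

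Whether the response differed between concentrations was tested directly, 2.4 µM against 1.3 µM at 36 hpf. With T16 171 genes differed (0.705%), 146 higher and 25 lower at 2.4 µM, and without T16 1346 genes (5.55%), 1193 higher and 153 lower, and the genes called in both fits were 71.9% of the first set and 9.14% of the second. The count was 1209 without T18 and 1601 without T20. DDIT4 was at 338, 169 and 147 CPM at 2.4 µM, against 66.7, 50.9 and 90.9 CPM at 1.3 µM (log2 difference 1.65 with T16, edgeR adjusted p = 1.28e-05, and 1.18 without it). The following genes were picked after their values were seen. The phosphatase subunit gene ppp1r15a, a feedback regulator of the integrated stress response, had 101, 49.3 and 45.1 CPM at 2.4 µM, against 23.2, 20.6 and 32.2 CPM at 1.3 µM (1.36 and 0.90). TNS1, a focal adhesion protein gene, had 17.5, 17.4 and 20.5 CPM at 2.4 µM, against 3.95, 4.98 and 8.45 CPM at 1.3 µM (1.67 and 1.70). In these 3 genes all libraries with 2.4 µM were above all with 1.3 µM.

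Endothelial calls between the concentrations are read against the 0.705% of all genes that differed with T16 and the 5.55% without it. With T16, 2 of 86 were lower at 2.4 µM, klf2b with 19.7, 21.5 and 21.4 CPM at 2.4 µM against 29.3, 31.2 and 27.1 CPM at 1.3 µM, and SOX7 with 8.31, 9.49 and 8.22 CPM at 2.4 µM against 12.2, 11.8 and 11.4 CPM at 1.3 µM, and both were also called without T16. Without T16 5 members were higher and 3 lower at 2.4 µM, with NOTCH1 (ENSDARG00000052094), UNC5B and PROX1 among the higher ones. Of the 8 VEGF receptors 0 differed with T16, and without it nrp1b was higher at 2.4 µM (1.09). The median difference over the endothelial list was -0.11 with T16 and -0.12 without it, beside 0.06 and 0.00 over all genes. A test that a gene did not pass does not show equal levels at the 2 concentrations.

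The change at 48 hpf was set against the change at 36 hpf in a test of the difference. With T16 4 genes passed (0.0165%), and without it 9 (0.0371%), of which plvapb and SSPN were shared. The count was 12 without T28, 33 without T18 and 234 without T20, and 2239 genes had an unadjusted p under 0.05 with T16. The 4 genes are plvapb, SSPN, DDIT4 and HEPACAM. The endothelial gene plvapb is the only one of the 86 among them. It encodes a protein of fenestral diaphragms and had 29.6, 20.1 and 19.7 CPM with sorafenib at 36 hpf, against 18.5, 17.6 and 20.4 CPM with DMSO. At 48 hpf it had 14.5, 16.2 and 22.8 CPM with sorafenib, against 31.1 and 33.9 CPM with DMSO, so that the sorafenib libraries were all below DMSO at 48 hpf (log2 fold change -0.87, called) and overlapped with DMSO at 36 hpf (0.29, not called). The difference of the changes was -1.16 ± 0.17 (edgeR adjusted p = 0.000945), and -0.95 without T16. For DDIT4 the change was 1.45 at 36 hpf and -0.12 at 48 hpf, where sorafenib libraries had 205, 223 and 218 CPM, against 239 and 229 CPM in DMSO libraries. The difference of -1.57 was called with T16 (edgeR adjusted p = 0.0367) and not without it (-1.11, adjusted p = 0.0687).

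Against rotenone at 50 nM at the same age, 2317 genes differed with T16 (9.56%) and 3524 without it (14.5%). This contrast holds T16 on the sorafenib side and T37 on the rotenone side, and with T16, T37 and a rotenone library of another group, T49, left out together 526 genes differed. The count was 3562 without T18 and 3739 without T20, and 0 in a fit of the 2 groups alone. Of the 86 endothelial genes, 27 were lower with sorafenib and 1 higher with T16, and 35 were lower and 1 higher without it. FLT4 had 9.35, 13.8 and 13.9 CPM with sorafenib, against 30.6, 24.3 and 20.7 CPM with rotenone (log2 difference -1.02 with T16 and -0.86 without it, edgeR adjusted p = 1e-07 and 2.57e-06). The values of insig1 were 60.8, 40.2 and 41.8 CPM with sorafenib, against 14.9, 15.4 and 17.0 CPM with rotenone (1.59 and 1.38). In both genes the groups did not overlap.

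Where the libraries lay in developmental time was described with an index built from the DMSO libraries of the late scenario, on which the mean of DMSO at 36 hpf is 0% and that at 96 hpf 100%. T16, T18 and T20 were at 2.77%, 4.85% and 2.91%, against 0.90%, -0.72% and -0.18% for T28, T29 and T30, and the DMSO libraries at 48 hpf were at 18.49% and 20.49%. The means were 3.51% ± 1.16 with sorafenib and 0.00% ± 0.82 with DMSO (SD, n = 3 each). All 3 sorafenib libraries were above all 3 DMSO libraries, which gave an exact two-sided permutation p of 0.1, the smallest that 3 against 3 libraries allow. The genes of the index were picked by the difference between the means of these 3 DMSO libraries and of DMSO at 96 hpf. Sorafenib and DMSO libraries are therefore not interchangeable in this test, and no conclusion is drawn from it. T16 was the lowest of the sorafenib libraries on this index and close to T20. The libraries of 1.3 µM sorafenib were at 0.27%, 1.87% and 2.19%. Those of rotenone were at 4.03%, 1.28% and 3.28% with 25 nM and at 1.02%, 0.77% and 1.92% with 50 nM. Libraries of these treatments also lay above all 3 DMSO libraries, except T31 of 1.3 µM sorafenib (0.27%) and T38 of rotenone at 50 nM (0.77%).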

How the data were processed

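Per the submitters' processing notes, HISAT2 2.1.0 with GRCz11 and featureCounts 2.0.3 made the table, and the values the authors deposited are raw read counts of 32520 genes in 57 libraries. The strand setting and the annotation release are not given in the sources used here. Of the gene IDs 29220 were named, 477 of them from the study's supplement and the rest from a reference table, whose symbols are often those of human genes. As in the study, T51 and a library with 13 counts were left out, and 55 libraries in 18 groups were fitted together with edgeR 4.0.16 in R 4.3.3 (filterByExpr, TMM, quasi-likelihood test, Benjamini-Hochberg threshold 0.05). CPM values are on TMM-scaled library sizes, with factors of 0.676 in T16 and 0.966 to 0.999 in the other 5 libraries, and log2 CPM values have a prior count of 2. Shares of counts are on plain totals. The filter left 24246 genes. The procedure was tested on simulated data, in which 98% to 99% of 200 genes changed by 1 log2 unit were recovered. The simulated libraries held no library that deviates from its group, so that test does not cover a case like T16. Changed genes were drawn only from genes with high counts, and all genes were given the same spread. The recovered share therefore does not cover genes of low counts. The members and the 32 gene lists were chosen with earlier results of these data known. Named genes were up to 15 per direction with the largest change among DEGs of both fits whose groups did not overlap, called members of the lists, up to 5 per direction called in 1 fit only, and the genes in which T16 lay farthest from the other libraries. Some genes that this rule names are not reported here. Alternatives were DESeq2 1.42.0, limma 3.58.1 (voom with sample quality weights), other size factors, filters and sample sets. Each of T16, T18, T20, T28, T29 and T30 was also left out in turn. Replicates are pools of embryos, so p-values measure the spread between pools, estimated over all groups in the fit.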

Additional observations from a re-analysis of the deposited data

Results flagged for a closer look

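In 4 genes the change with 2.4 µM sorafenib against DMSO differed between 48 hpf and 36 hpf in edgeR's test of the difference. The difference, 48 hpf minus 36 hpf on the log2 scale, was -1.57 for DDIT4, -1.19 for SSPN, -1.16 for plvapb and -1.06 for HEPACAM. SSPN, a member of the dystrophin complex, had 5.21, 5.73 and 4.59 CPM with sorafenib at 36 hpf, against 2.44, 2.81 and 2.65 CPM with DMSO, and at 48 hpf 8.38, 8.53 and 8.56 CPM with sorafenib, against 9.49 and 10.2 CPM with DMSO. HEPACAM, an adhesion molecule gene, had 3.85, 3.96 and 4.09 CPM with sorafenib at 48 hpf, against 5.24 and 5.67 CPM with DMSO. Without T16 plvapb (-0.95) and SSPN (-1.18) were called, and DDIT4 and HEPACAM were not (edgeR adjusted p = 0.0687 for each).

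Between 2.4 µM and 1.3 µM sorafenib at 36 hpf 171 genes differed with T16 and 1346 without it, and the shared genes were 71.9% of the first set and 9.14% of the second.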

How the results depend on the processing

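Counts of DEGs depended on the libraries in the fit, and the cause was not tested. Only the 6 libraries of sorafenib 2.4 µM and DMSO at 36 hpf were left out 1 at a time. The count against DMSO was then between 119 and 3016, and against 1.3 µM between 157 and 1601. For the change between ages it was between 3 and 234, and against rotenone between 2198 and 3739. Endothelial genes down-regulated were then between 16 and 29, cholesterol genes up-regulated between 2 and 11, and the log2 fold change of NOTCH1 (ENSDARG00000052094) between -0.01 and 0.88, negative without T18. In the order DMSO, 1.3 µM, change between ages and rotenone, the fit of only the groups compared gave 0, 0, 0 and 0 DEGs, and T16, T37 and T49 left out together gave 2708, 4667, 310 and 526. The fit of only late libraries at 36 hpf gave 9 against DMSO, 0 against 1.3 µM and 4 against rotenone, and was not run for the change between ages. Against DMSO, 1.3 µM and for the change between ages, DESeq2 gave 1172, 536 and 85 DEGs and voom with sample quality weights 3470, 4620 and 1295. The change between ages had 17 DEGs with a mean count of at least 10 and 36 with T51 added back.

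Endothelial calls were 0 with only the groups compared, 2 with only libraries at 36 hpf, 41 with T16, T37 and T49 left out and 40 with voom, with medians of -0.33, -0.35, -0.36 and -0.30. Cholesterol calls were 0 with only the groups compared and 2 with only libraries at 36 hpf.

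Chosen after seeing the data were fits without T16. With only the groups compared they gave 4065 DEGs against DMSO, 3883 against 1.3 µM, 1424 for the change between ages and 0 against rotenone, and 14 cholesterol calls. With only libraries at 36 hpf they gave 1093 against 1.3 µM and 457 against rotenone. With T37 left out too they gave 3486 against DMSO, 5256 against 1.3 µM, 35 endothelial and 15 cholesterol calls. DESeq2 without T16 gave 1218, 2062, 164 and 5325 DEGs for the 4 comparisons, and 4 cholesterol calls.

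The stage index of sorafenib was 16.46% where DMSO at 36 and 48 hpf defined it. On that scale 100% is the mean of DMSO at 48 hpf, and T28, T29 and T30 were at 5.44%, -3.21% and -2.22%. The main index has DMSO at 96 hpf as 100%, so its 3.51% is on another scale. No paired analysis was possible because the groups share no replicate numbers. Low counts limit gja4, the opsins and other genes under 1 CPM.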

Other observations

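Genes up-regulated only without T16, and then those called in both fits, were also followed in other groups of the late exposure scenario. The 628 genes had medians of 0.83, 0.80 and 0.61 log2 units above the mean of DMSO at 36 hpf in the libraries of rotenone at 25 nM and the same age, and of -0.11, -0.10 and 0.07 in those of 1.3 µM sorafenib. In the DMSO libraries at 48 hpf the medians were 0.79 and 0.51. The 65 genes down-regulated in both fits had medians of -0.31, -0.27 and -0.40 in the libraries of 1.3 µM sorafenib at 36 hpf, which share the DMSO libraries, and of -0.57, -0.46 and -0.28 in those of 2.4 µM at 48 hpf. In the DMSO libraries at 48 hpf the medians of these 65 genes were -0.08 and -0.10.

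Receptor kinase genes of pigment cells and macrophages had T16 on the other side of DMSO from T18 and T20. The receptor gene csf1ra had 1.35 CPM in T16, 7.68 CPM in T18 and 5.16 CPM in T20, against 2.92, 3.35 and 3.33 CPM in DMSO libraries, and it was up-regulated without T16 only (log2 fold change 1.01, edgeR adjusted p = 0.0129).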
